A study of Hordeum vulgare with 22 samples.

Results

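The data below follow one developmental span in one barley line: inflorescences of mnd1.a at Waddington stage W5.0 (awn primordium stage) set against inflorescences of the same line at W2.0 (double ridge stage). The comparison takes every mnd1.a library of these stages, 4 at W5.0 and 3 at W2.0, which are 7 of the 22 samples of the series, and covers all 24318 transcripts of the count table, 1 per gene. The mnd1.a plants, genotype mnd1.a (GSHO2038), carry the mnd1.a allele in the background of the spring cultivar Bowman. All groups grew in long days, and messenger RNA was read from inflorescence tissue that still held its base and the small leaves below it. Set beside this span are mnd1.a at W3.5 (3 libraries) and the background line Bowman at W5.0 (4 libraries) and W2.0 (3 libraries), and Bowman at W3.5 (4 libraries) enters the fit. All 7 libraries of the span carry the library code prefix 1328, and so do the Bowman W2.0 libraries, whereas both W3.5 groups and Bowman W5.0 carry 1327. Whether each library came from its own plants is not stated in the labels. The p-values therefore reflect the spread among these libraries, part of which may be technical.

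Between the double ridge and the awn primordium stage a barley apex passes from making spikelet ridges to building florets. Floral organs in grasses, as in other flowering plants, are specified by combinations of MADS-box transcription factors, conventionally grouped as APETALA1/FRUITFULL-like, SEPALLATA, B-class (petal and stamen) and C-class (stamen and carpel) genes. Genes of the TERMINAL FLOWER 1 (TFL1) family counteract floral fate and keep meristems indeterminate. Many-noded dwarf mutants of barley form extra leaves and stem nodes, and MND1 encodes an acyl-CoA N-acyltransferase.

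The 7 libraries held 12161397 to 16851516 estimated counts, and values below are CPM (counts relative to the TMM-scaled size of the library), which compare samples but not genes of different length. Correlations of log2 CPM between libraries lay between 0.964 and 0.967 within W5.0 and between 0.953 and 0.962 within W2.0. The first principal component of the 7 libraries held 54.6% of the variance and separated the stages, and the second held 10.8% and set W2.0 replicate 1 (63.8) apart from W2.0 replicates 2 (-41.2) and 3 (-31.9). MND1 itself (HORVU7Hr1G113480, chromosome 7H, 637080378 to 637082097, positions as the authors' table gives them, genome build not given in the sources used here) had 6.02, 2.39, 5.903 and 5.996 CPM at W5.0, against 5.22, 6.71 and 4.804 CPM at W2.0. The mnd1.a groups overlapped, with W5.0 replicate 2 the lowest library, and no change was called (log2 fold change -0.13 ± 0.38, standard error, adjusted p = 0.83). In Bowman it had 15.8, 15.996, 13.01 and 6.15 CPM at W5.0, against 10.5, 12.6 and 20.97 CPM at W2.0, so at each stage every mnd1.a library lay below every Bowman library.

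In mnd1.a, 4034 of 21132 tested genes (19.1%) differed between W5.0 and W2.0 at a Benjamini-Hochberg adjusted p under 0.05 in edgeR's quasi-likelihood test, which is what "called" means below. Of these, 1829 (8.66% of tested genes) rose and 2205 (10.4%) fell, and the median over all tested genes was a log2 fold change of -0.000663. Of the 1606 called genes that changed at least 2-fold, 486 rose and 1120 fell. All libraries of one stage lay beyond all libraries of the other in 43.6% of tested genes and in 3960 of the 4034 called genes. Except for MND1, VRN-H1, PPD-H1, VRS1 and the MADS-box and TFL1 members, genes named below had to meet this condition. For those genes the separation of the stages is a condition of naming and no further evidence. Among the named chromosomes the share of called genes ran between 18.0% on 4H and 20.3% on 5H. The number of calls rests on individual libraries, being 2012 without W2.0 replicate 1, 2197 without W2.0 replicate 2 and 2686 without W5.0 replicate 4, and 1611 of the 4034 genes were called with each of the 7 libraries left out in turn. A fit on these 7 libraries alone called 7747 genes. The median SD of log2 CPM was 0.148 at W5.0 and 0.142 at W2.0, against 0.187 to 0.265 in the 4 other groups that share the spread estimate in the main fit.

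**Figure D1:**
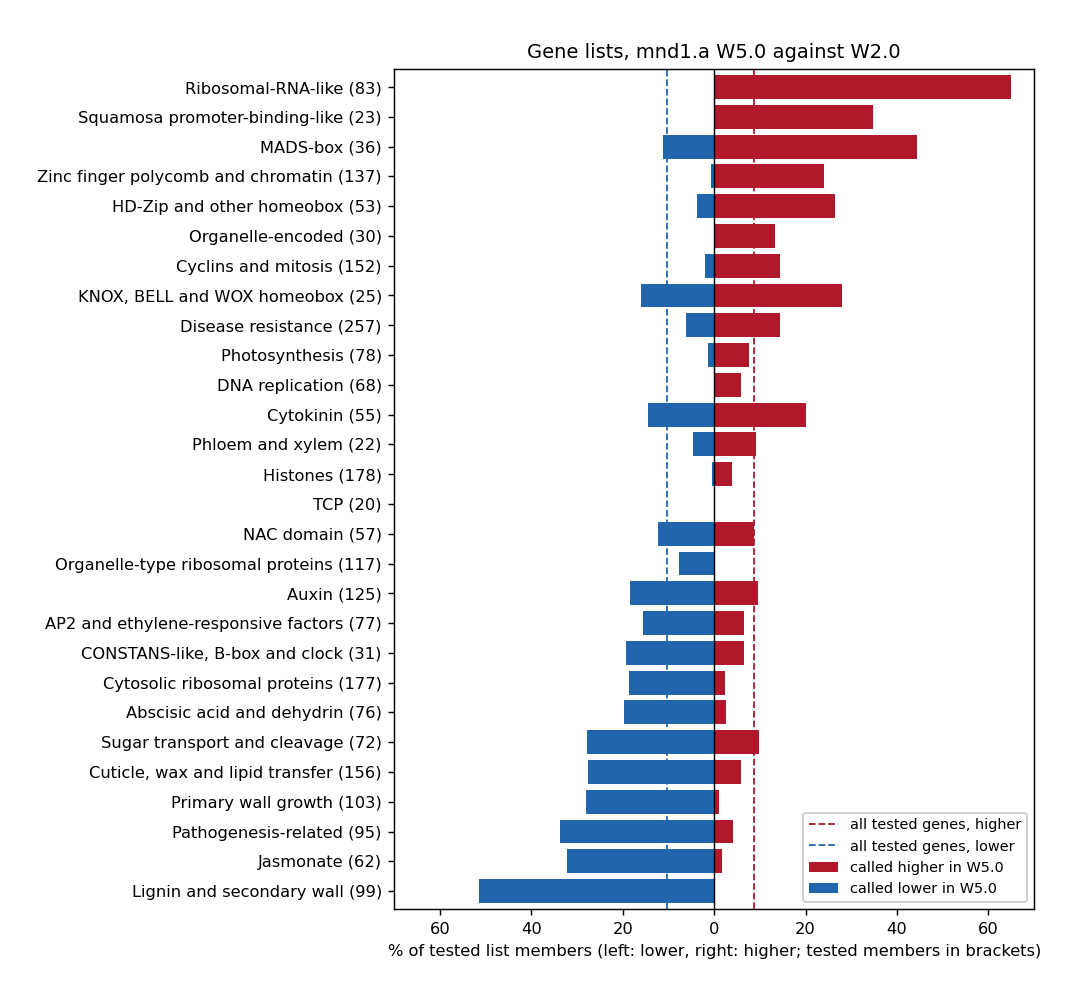
Horizontal bars give, for each gene list with at least 20 tested members, the percentage of tested members called higher (right) and lower (left) in mnd1.a W5.0 than in W2.0, and dashed lines give the same for all tested genes (8.66% and 10.4%). Lignin and secondary wall genes reach furthest to the left (51.5%), and ribosomal-RNA-like transcripts (65.1%) and MADS-box genes (44.4%) furthest to the right.

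MADS-box genes had the largest share of rising members among the transcription factor lists. Of 36 tested MADS-box genes, 16 rose (44.4%, against 8.66% of all tested genes) and 4 fell (11.1%, against 10.4%), with a median log2 fold change of 0.83. Because the tissue is bulk, a larger share of floret cells and more RNA per cell cannot be told apart, here or for any gene below. Of 42 listed members, 6 did not pass the filter on low counts, and 13 tested members were neither called nor reached a mean of 5 CPM at either stage. The list also holds the markers of floral meristems, and its summed level was 926 to 957 CPM at W5.0, against 648 to 772 CPM at W2.0.

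SEPALLATA-type genes, which act as partners in every floral organ complex, rose in 4 of the 5 named cases. MADS-box transcription factor 1 (HORVU4Hr1G067680, chromosome 4H, 561493713 to 561502133) had 41.7, 48.2, 45.6 and 68.1 CPM at W5.0, against 0.0828, 0.780 and 6.57 CPM at W2.0. Every W5.0 library lay above every W2.0 library, and among the W2.0 libraries replicate 3 was by far the highest. The log2 fold change was 4.24 ± 0.90 (adjusted p = 0.0051). MADS-box transcription factor 7 (HORVU7Hr1G054220, chromosome 7H, 216028773 to 216035915) had 30.9, 40.7, 27.5 and 41.9 CPM at W5.0, against 0.0828, 0.468 and 4.01 CPM at W2.0, and rose by 4.40 ± 0.91 (adjusted p = 0.0053). Its stages did not overlap either. MADS-box transcription factor 8 (HORVU5Hr1G076400) stood at 20.03, 24.2, 19.3 and 28.995 CPM at W5.0, against 0.0828, 0.624 and 2.98 CPM at W2.0, a rise of 4.11 ± 0.74 (adjusted p = 0.0018). MADS-box transcription factor 5 (HORVU7Hr1G025700) rose by 3.02 ± 0.79 (adjusted p = 0.015), with 21.3, 23.6, 17.5 and 31.3 CPM at W5.0, against 0.0828, 1.48 and 6.51 CPM at W2.0. The SEPALLATA gene known in rice for an early role in spikelet meristems, MADS-box transcription factor 34 (HORVU5Hr1G095710), was not called: it had 6.84, 7.57, 6.43 and 9.94 CPM at W5.0, against 0.331, 0.780 and 6.93 CPM at W2.0, so that W2.0 replicate 3 reached into the W5.0 range (log2 fold change 1.42 ± 0.63, adjusted p = 0.12). Without W2.0 replicate 3 it was called, at 3.76 (adjusted p = 0.0025).

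Genes of the B and C classes, which specify lodicules, stamens and carpels in rice, were low at double ridge and higher at the awn primordium stage. The AP3-like B-class gene MADS-box transcription factor 16 (HORVU7Hr1G091210) had 17.6, 23.005, 18.9 and 27.5 CPM at W5.0, against 0.166, 0.390 and 3.34 CPM at W2.0 (log2 fold change 3.94 ± 0.78, adjusted p = 0.0035). Its PISTILLATA-like partners rose less, MADS-box transcription factor 4 (HORVU1Hr1G063620) by 2.97 ± 0.68 (adjusted p = 0.0078) and MADS-box transcription factor 2 (HORVU3Hr1G091000) by 1.91 ± 0.40 (adjusted p = 0.0041). Both PISTILLATA-like genes already stood above 1 CPM in every W2.0 library, at 1.82, 1.48 and 7.97 CPM for the first and 1.16, 1.404 and 2.68 CPM for the second. Of the C class, MADS-box transcription factor 58 (HORVU1Hr1G029220) had 6.18, 4.71, 4.54 and 5.91 CPM at W5.0, against 0.0828, 0.156 and 0.973 CPM at W2.0, and rose by 3.58 ± 0.83 (adjusted p = 0.0076). MADS-box transcription factor 3 (HORVU3Hr1G026650), the other C-class gene named here, rose by 2.92 ± 0.79 (adjusted p = 0.016). The AGL6-type gene MADS-box transcription factor 6 (HORVU6Hr1G066140), which shapes floral meristems in rice, had 15.01, 21.8, 16.3 and 21.7 CPM at W5.0, against 0, 0.390 and 3.89 CPM at W2.0, and rose by 3.58 ± 0.91 (adjusted p = 0.018). In each of these 6 genes the stages did not overlap, and W2.0 replicate 3 was the highest library of its stage.

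APETALA1/FRUITFULL-like genes, which mark the commitment of the apex to flowering, rose in 4 of the 5 named cases. VRN-H1 (HORVU5Hr1G095630, annotated as MADS-box transcription factor 14, chromosome 5H, 599122941 to 599133084), the vernalization gene of barley, had 201, 191, 211 and 184 CPM at W5.0, against 109, 123 and 149.7 CPM at W2.0. The stages did not overlap, and the log2 fold change was 0.63 ± 0.18 (adjusted p = 0.019). MADS-box transcription factor 15 (HORVU2Hr1G063800) stood at 77.5, 74.3, 72.4 and 81.4 CPM at W5.0, against 2.403, 5.85 and 20.1 CPM at W2.0, a rise of 2.97 ± 0.62 (adjusted p = 0.0047). The pair annotated as MADS-box transcription factor 18 rose by 1.72 ± 0.21 (HORVU0Hr1G003020, adjusted p = 0.00013) and 2.82 ± 0.44 (HORVU2Hr1G069820, adjusted p = 0.00072). A second gene annotated as MADS-box transcription factor 14 (HORVU1Hr1G047560) was not called, with 10.1, 7.49, 1.89 and 6.74 CPM at W5.0, against 3.98, 4.13 and 5.53 CPM at W2.0. Further risers were MADS-box transcription factor 32 (HORVU3Hr1G068900), a grass gene of floret development, which rose by 1.64 ± 0.37 (adjusted p = 0.007), and the SOC1-like MADS-box transcription factor 56 (HORVU1Hr1G051660), which rose by 1.57 ± 0.43 (adjusted p = 0.016; 0.051 in limma-voom). Reads of near-identical copies may be split between genes, which leaves the values of such pairs uncertain.

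**Figure D2:**
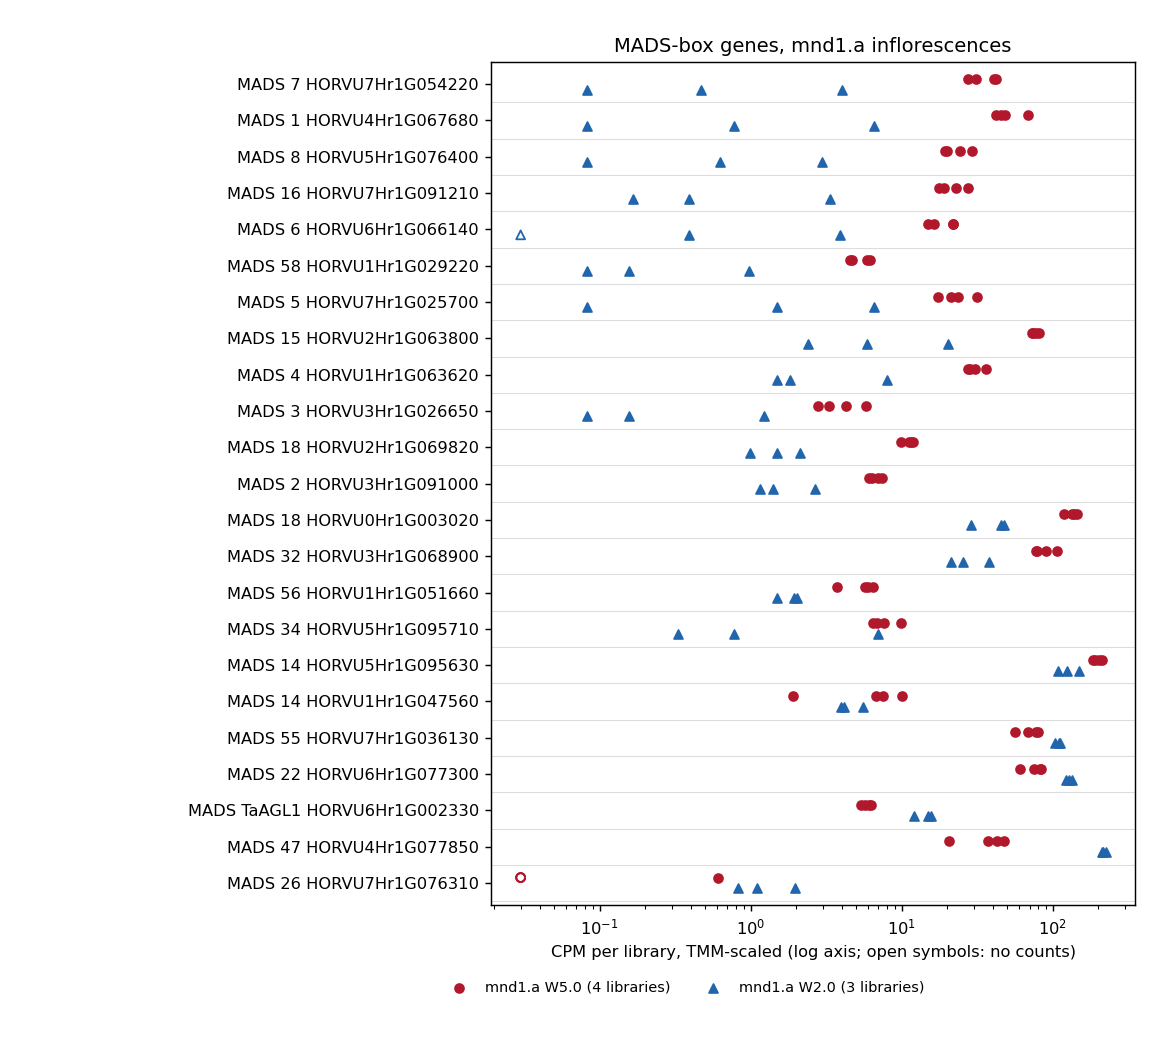
Each row is a MADS-box gene that was called or reached at least 5 CPM on average at one of the stages, ordered by log2 fold change, and each symbol is 1 library on a log axis of CPM, with W5.0 as circles and W2.0 as triangles. The W2.0 libraries of MADS 1, 5, 7, 8, 16, 34 and 58 spread over more than a factor of 10, with replicate 3 highest, while their 4 W5.0 libraries lie within a factor of 2.

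Of the 4 members that fell, 2 belong to the SVP group, genes known in barley to hold back floral development when overexpressed. MADS-box transcription factor 47 (HORVU4Hr1G077850, chromosome 4H, 605649775 to 605668437) had 37.3, 47.6, 42.4 and 20.5 CPM at W5.0, against 216, 223 and 211 CPM at W2.0. All W5.0 libraries lay far below W2.0, with replicate 4 the lowest, and the log2 fold change was -2.55 ± 0.71 (adjusted p = 0.021). MADS-box transcription factor 22 (HORVU6Hr1G077300) fell by 0.75 ± 0.24 on the log2 scale (adjusted p = 0.035), to 75.5 ± 10.7 CPM at W5.0 (SD, n = 4), against 127 ± 5.91 CPM at W2.0 (SD, n = 3). The third SVP-type gene, MADS-box transcription factor 55 (HORVU7Hr1G036130), was not called (log2 fold change -0.62 ± 0.34, adjusted p = 0.21), although its 79.4, 68.9, 76.9 and 55.8 CPM at W5.0 all lay below the 109, 111 and 103 CPM at W2.0. A fit on the 7 libraries alone called it (adjusted p = 0.0015). The gene annotated as TaAGL1 (HORVU6Hr1G002330) fell by 1.28 ± 0.20 (adjusted p = 0.00056), with 6.02, 5.71, 6.28 and 5.34 CPM at W5.0, against 14.9, 12.1 and 15.7 CPM at W2.0. The fourth gene to fall was MADS-box transcription factor 26 (HORVU7Hr1G076310), with counts in 1 of 4 W5.0 libraries (0, 0, 0.605 and 0 CPM), against 0.828, 1.95 and 1.09 CPM at W2.0 (log2 fold change -2.98 ± 0.91, adjusted p = 0.029; -7.28 without W5.0 replicate 3, when no count is left at W5.0 and the value depends on the prior count).

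The W2.0 libraries were not alike in these genes. Among the 16 MADS-box genes that rose, W2.0 replicate 3 was the highest W2.0 library in 15 and W2.0 replicate 1 the lowest in 15. The same tilt was present beyond this family: W2.0 replicate 3 was the highest W2.0 library in 64.2% of the 486 genes that rose at least 2-fold and the lowest in 47.8% of the 1120 that fell at least 2-fold, against 33.6% and 33.7% of all tested genes. Without W2.0 replicate 3, 17 MADS-box genes rose and 3 fell, and 8 named fold changes were more than 1.5 times as large, namely 6.82 for MADS-box transcription factor 1, 6.93 for 7, 6.23 for 16, 6.48 for 6, 5.37 for 58, 4.97 for 3, 4.86 for 5 and 3.76 for 34 on the log2 scale. Without W2.0 replicate 1, 11 rose and 2 fell, and without W2.0 replicate 2, 12 and 1. The calls of MADS-box transcription factors 3, 5 and 6 were lost in both cases (adjusted p from 0.056 to 0.075), and those of VRN-H1 too (0.10 and 0.069). MADS-box transcription factor 56 lost its call without W2.0 replicate 1 (adjusted p = 0.073). Among the fallers, the call of MADS-box transcription factor 47 was lost without W2.0 replicate 1 or 2 or W5.0 replicate 1 or 4 (0.051 to 0.061), that of 26 without W2.0 replicate 2 or W5.0 replicates 1, 2 or 4 (0.073 to 0.11), and that of 22 without any 1 of 6 libraries (0.052 to 0.096).

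Of the TFL1 genes, whose family maintains the indeterminate state, 1 rose over this span and the other was not called. The TFL1 gene on chromosome 4H (HORVU4Hr1G078770, 4H, 609002595 to 609004185) had 21.6, 11.3, 22.4 and 10.8 CPM at W5.0, against 4.64, 8.42 and 4.14 CPM at W2.0. Every W5.0 library lay above every W2.0 library, and W5.0 replicates 1 and 3 were about level with each other and higher than replicates 2 and 4. It rose by 1.53 ± 0.45 on the log2 scale (adjusted p = 0.025), a call lost without W2.0 replicate 1 or 3 or W5.0 replicate 1 or 3 (adjusted p from 0.068 to 0.10). The TFL1 gene on chromosome 2H (HORVU2Hr1G072750, 2H, 523377523 to 523379139) had 104, 52.3, 113 and 51.99 CPM at W5.0, against 78.8, 94.2 and 68.5 CPM at W2.0. Its groups overlapped, with the same pair of W5.0 libraries high and the same pair low, and the log2 fold change was -0.00 ± 0.48 (adjusted p = 1.0). At the mid stage W3.5 the 4H gene stood at 1.21, 1.91 and 3.72 CPM and the 2H gene at 98.6, 93.2 and 75.9 CPM. The third tested member of the phosphatidylethanolamine-binding list was not called.

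VRS1 (HORVU2Hr1G092290, chromosome 2H, 652031295 to 652032562), the homeodomain-leucine zipper gene that suppresses lateral spikelets, appeared over the span. It had 2.64, 1.78, 3.25 and 2.46 CPM at W5.0, against 0, 0 and 0.304 CPM at W2.0, where a floor of 3 counts corresponds to 0.178 to 0.239 CPM. The log2 fold change was 4.33 ± 0.97 (adjusted p = 0.0062; 0.050 in limma-voom), and it was 8.23 without W2.0 replicate 3, the only W2.0 library with counts, a value that then depends on the prior count. The photoperiod gene PPD-H1 (HORVU2Hr1G013400, annotated as pseudo-response regulator 7, chromosome 2H, 29123785 to 29127889) had 119.5, 110.4, 114 and 101 CPM at W5.0, against 94.2, 98.6 and 93.8 CPM at W2.0. No call was made for it (log2 fold change 0.22 ± 0.11, adjusted p = 0.18; 0.0084 in the fit on the 7 libraries), although no W5.0 library lay as low as any W2.0 library.

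Families that regulate meristem phase and spikelet identity had calls in opposite directions. Squamosa promoter-binding-like (SPL) genes, which drive age-dependent phase change, rose in 8 of 23 cases (34.8%, against 8.66% of all tested genes). Their median log2 fold change was 0.49. SPL4 (HORVU2Hr1G048280, chromosome 2H, 269392292 to 269400012) had 43.4, 40.2, 45.6 and 51.5 CPM at W5.0, against 5.05, 8.11 and 12.5 CPM at W2.0, and rose by 2.38 ± 0.43 (adjusted p = 0.0019). SPL10 (HORVU7Hr1G110960) rose by 1.67 ± 0.25 (adjusted p = 0.0005). Both had W5.0 libraries wholly above W2.0, a condition of naming. ALOG genes, known in rice for delaying the passage from branch to spikelet meristem, fell in 6 of 9 cases (66.7%, against 10.4% of all tested genes). The ALOG median was -1.64. This list was narrowed after seeing the data, and the word pattern as first written gave 7 falling, 2 rising and a median of -0.26. The LIGHT-DEPENDENT SHORT HYPOCOTYLS 3 gene HORVU1Hr1G041240 (chromosome 1H, 293032034 to 293032966) had 15.8, 12.04, 17.6 and 12.98 CPM at W5.0, against 72.3, 70.4 and 52.5 CPM at W2.0, and fell by 2.15 ± 0.38 on the log2 scale (adjusted p = 0.0016). LIGHT-DEPENDENT SHORT HYPOCOTYLS 6 (HORVU1Hr1G070480) fell to 1.65, 1.004, 1.74 and 0.904 CPM at W5.0, against 4.97, 5.23 and 5.05 CPM at W2.0 (log2 fold change -1.93 ± 0.48, adjusted p = 0.0095). The summed ALOG level was 159 to 222 CPM at W5.0, against 385 to 523 CPM at W2.0, so the stages did not overlap. With single libraries left out, 7 to 10 SPL genes rose and 4 to 6 ALOG genes fell.

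Among homeobox genes, 14 of 53 HD-Zip and other members rose (26.4%, against 8.66% of all tested genes) and 2 fell (3.77%, against 10.4%). Their median was 0.18. Zinc finger homeodomain 1 (HORVU2Hr1G075950) had 50.04, 45.2, 49.3 and 51.3 CPM at W5.0, against 14.7, 18.8 and 23.7 CPM at W2.0, and rose by 1.35 ± 0.27 (adjusted p = 0.0029). Of the 25 genes of the meristem homeobox list (KNOX, BELL and WOX), 7 rose (28.0%) and 4 fell (16.0%), with a median of -0.04. A BEL1 homolog (HORVU1Hr1G072850), of the family that pairs with KNOX proteins, had 79.5, 81.5, 90.2 and 88.3 CPM at W5.0, against 56.6, 50.5 and 51.9 CPM at W2.0, a rise of 0.68 ± 0.13 (adjusted p = 0.0022). These counts depend on single libraries. Without W2.0 replicate 1 or 2, 7 HD-Zip and other genes rose, and 9 to 10 without any other library. Without W2.0 replicate 1 or 2 or W5.0 replicate 4, 2 KNOX, BELL and WOX genes rose, and 3 to 5 without any other. In that list 1 gene fell without W2.0 replicate 1 or 2 or W5.0 replicate 2 or 4, 2 without W2.0 replicate 3 or W5.0 replicate 1 and 3 without W5.0 replicate 3. None of the 7 tested YABBY genes, regulators of organ polarity, and none of the 20 TCP genes, regulators of branching and organ growth, was called by edgeR, DESeq2 or limma-voom. At an unadjusted p under 0.05 in edgeR, 2 YABBY genes were higher and 1 TCP gene was lower, and the fit on the 7 libraries alone called 5 YABBY genes higher, 2 TCP genes higher and 3 TCP genes lower.

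Single transcription factors changed by much more than the medians of their lists. An AP2-like ethylene-responsive factor (HORVU1Hr1G011800) had 0.989, 0.772, 1.74 and 1.15 CPM at W5.0, against 39.3, 44.3 and 33.996 CPM at W2.0, and fell by 5.06 ± 0.82 on the log2 scale (adjusted p = 0.0011). A dehydration-responsive element-binding gene (HORVU5Hr1G080300) fell by 4.43 ± 0.70 (adjusted p = 0.00087), to 0.495, 0.463, 0.757 and 0.493 CPM at W5.0, against 12.6, 11.9 and 11.9 CPM at W2.0. Neither gene had a W5.0 library within a factor of 10 of any W2.0 library. Their list, AP2 and ethylene-responsive factors, had 5 of 77 members rising (6.49%) and 12 falling (15.6%), against 8.66% and 10.4% of all tested genes, with a median of -0.20. Of these, 3 to 4 rose with single libraries left out, and 5 fell without W2.0 replicate 1 or 2 or W5.0 replicate 2 or 4, 7 without W5.0 replicate 1 and 8 to 9 without the others. A pair of basic helix-loop-helix genes also fell: bHLH128 (HORVU6Hr1G054910) fell by 4.04 ± 0.53 (adjusted p = 0.00022) and bHLH63 (HORVU6Hr1G068980) fell by 3.94 ± 0.74 (adjusted p = 0.0021), with at most 0.821 CPM in any W5.0 library of either and at least 5.07 CPM in any W2.0 library. In the opposite direction, an AP2/B3 family gene (HORVU3Hr1G067350) had 8.57, 8.34, 8.93 and 8.296 CPM at W5.0, against 1.91, 2.496 and 1.89 CPM at W2.0, and rose by 2.03 ± 0.31 (adjusted p = 0.00059). NAC genes, a family that includes boundary and secondary wall regulators, rose in 5 (8.77%) and fell in 7 (12.3%) of 57 cases, shares close to those of all tested genes (8.66% and 10.4%), with a median of -0.10. None rose without W2.0 replicate 1 or W5.0 replicate 4, against 1 to 4 without any other library, and 4 fell without W2.0 replicate 2. The NAC gene HORVU2Hr1G080460 fell by 2.32 ± 0.41 (adjusted p = 0.0013).

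Genes of the growth hormones were called in both directions. Cytokinin genes, which sustain meristem activity, rose in 11 of 55 cases (20%, against 8.66% of all tested genes) and fell in 8 (14.5%, against 10.4%). Their median was 0.07, or 0.12 with the word pattern as first written, which was changed after seeing the data. The gene with the largest rise that met the naming rule encodes a cytokinin riboside 5'-monophosphate phosphoribohydrolase (HORVU5Hr1G086520), the LONELY GUY type of enzyme that releases active cytokinin. It had 7.34, 8.72, 10.2 and 11.1 CPM at W5.0, against 1.33, 1.404 and 2.43 CPM at W2.0, and rose by 2.41 ± 0.37 (adjusted p = 0.00053). The cytokinin receptor gene histidine kinase 3 (HORVU6Hr1G077070) rose by 0.85 ± 0.19 (adjusted p = 0.0053), with 96.2, 94.3, 107 and 103 CPM at W5.0, against 55.3, 54.4 and 57.5 CPM at W2.0. In both genes the stages were fully apart, a condition of naming. Without W2.0 replicate 1 or 2, 4 cytokinin genes rose and 2 to 4 fell, and without any other library 6 to 8 rose and 5 to 8 fell. Auxin genes rose in 12 (9.60%, against 8.66% of all tested genes) and fell in 23 (18.4%, against 10.4%) of 125 cases (median -0.13), with 7 to 9 rising and 16 to 23 falling when single libraries were left out (7 rising without W2.0 replicate 1 or W5.0 replicate 1 or 3). A neighbouring pair on chromosome 2H annotated as auxin response factor 10, of the class that represses auxin-responsive genes, fell by 1.09 ± 0.24 (HORVU2Hr1G089660, adjusted p = 0.0047) and fell by 0.97 ± 0.23 (HORVU2Hr1G089670, adjusted p = 0.0077), whereas auxin response factor 6 (HORVU3Hr1G022060), of the activating class, rose by 0.80 ± 0.16 (adjusted p = 0.0034).

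Genes of the stress hormones fell more often than they rose. Jasmonate genes, which make or answer the wound and defence hormone jasmonate, rose in 1 (1.61%) and fell in 20 (32.3%) of 62 cases (median -0.58). Abscisic acid and dehydrin genes rose in 2 (2.63%) and fell in 15 (19.7%) of 76 (median -0.53). The shares over all tested genes were 8.66% rising and 10.4% falling. The word pattern of the abscisic acid list as first written, before it was narrowed after seeing the data, gave 4 rising, 17 falling and a median of -0.35. The 23 kDa jasmonate-induced protein gene (HORVU3Hr1G117610) had no counts in any W5.0 library, against 6.38, 4.91 and 5.23 CPM at W2.0. With a floor of 3 counts for the 4 W5.0 libraries together, it was at least 92.7-fold lower at W5.0 (adjusted p = 7.52e-06). A 12-oxophytodienoate reductase 2 gene (HORVU2Hr1G004230) also had none at W5.0, against 9.11, 6.16 and 5.41 CPM at W2.0, and was at least 116-fold lower (adjusted p = 0.00051). The summed jasmonate level was 3222 to 3604 CPM at W5.0, against 6297 to 7087 CPM at W2.0. An abscisic acid receptor gene, PYR1 (HORVU4Hr1G055220), stood at 0.412, 0, 0.0757 and 0 CPM at W5.0, against 8.202, 7.02 and 6.26 CPM at W2.0, and fell by 5.81 ± 0.98 (adjusted p = 0.0012). Dehydrin COR410 (HORVU6Hr1G064620), a protein of drying and cold tolerance, had 25.5, 27.6, 35.3 and 22.2 CPM at W5.0, against 134, 143 and 115 CPM at W2.0, and fell by 2.24 ± 0.44 (adjusted p = 0.0033). All these genes had the stages fully apart, as the naming rule required. With single libraries left out, 14 to 19 jasmonate genes and 10 to 14 abscisic acid and dehydrin genes fell.

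Genes of defence proteins fell as well. Of 95 pathogenesis-related genes (chitinases, thaumatin-like proteins, thionins and their kin), 32 fell (33.7%, against 10.4% of all tested genes) and 4 rose (4.21%, against 8.66%). Their median was -0.67. The list was narrowed after seeing the data, and the word pattern as first written gave 49 falling, 9 rising and a median of -0.15. With the narrowed list, 0 to 3 rose with single libraries left out, and 15 fell without W2.0 replicate 1 or 2, 18 to 20 without W5.0 replicate 1, 2 or 4 and 22 to 28 without the others. A leaf-specific thionin (HORVU0Hr1G014720), a small antimicrobial peptide, had 1.15, 0.618, 1.44 and 0.904 CPM at W5.0, against 3.65, 10.998 and 10.4 CPM at W2.0, and fell by 3.01 ± 0.72 (adjusted p = 0.0087). Thionin 2.1 (HORVU6Hr1G000710) had 4.62, 3.32, 3.03 and 0.739 CPM at W5.0, against 11.3, 22.6 and 32.4 CPM at W2.0, and fell by 2.92 ± 0.69 (adjusted p = 0.0091). In both thionins W2.0 replicate 1 was the lowest library of its stage, though still above all W5.0 libraries. Disease resistance genes, the intracellular immune receptors, rose more often than they fell. Of 257, 37 rose (14.4%, against 8.66% of all tested genes) and 16 fell (6.23%, against 10.4%), with a median of 0.13. With the word pattern as first written, 25 fell. Without W2.0 replicate 1, 18 rose, and without W2.0 replicate 2, 8 fell.

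Among lists of at least 20 tested members, lignin and secondary wall genes had the largest share of falling members. Of 99 tested members, 51 fell (51.5%, against 10.4% of all tested genes) and the median log2 fold change was -1.10. Phenylalanine ammonia-lyase 2 (HORVU6Hr1G058820, chromosome 6H, 385750044 to 385753866), the entry enzyme of the phenylpropanoid pathway, had 7.58, 19.1, 13.02 and 6.65 CPM at W5.0, against 133, 207 and 138 CPM at W2.0. The stages were far apart, with W5.0 replicate 2 the highest and replicate 4 the lowest of their stage, and the log2 fold change was -3.78 ± 1.00 (adjusted p = 0.016). Laccase 17 (HORVU3Hr1G086200), which polymerizes lignin in Arabidopsis, had 0.165, 0.926, 1.06 and 0.575 CPM at W5.0, against 7.46, 5.38 and 7.36 CPM at W2.0, and fell by 3.28 ± 0.52 (adjusted p = 0.00072). The summed level of the list was 1295 to 1514 CPM at W5.0, against 2491 to 2828 CPM at W2.0, and 41 to 49 members fell with single libraries left out. Of the phloem and xylem markers, a second vascular list, 2 of 22 rose (9.09%, near the 8.66% of all tested genes) and 1 fell (median 0.11), and their summed level was 1643 to 1718 CPM at W5.0, against 1372 to 1477 CPM at W2.0.

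Genes of the growing wall and the plant surface fell in smaller shares. Among 103 primary wall growth genes, 29 fell (28.2%, against 10.4% of all tested genes) and 1 rose (0.971%, against 8.66%), with a median of -0.40. Of them, 14 fell without W2.0 replicate 1 or 2, 17 to 19 without W5.0 replicate 1, 2 or 4 and 22 to 25 without the others. Expansin B4 (HORVU6Hr1G063180), of a family that loosens the wall, had 1.48, 0.618, 2.42 and 1.31 CPM at W5.0, against 14.4, 12.2 and 10.3 CPM at W2.0, and fell by 3.07 ± 0.47 (adjusted p = 0.00053). A cellulose synthase family gene (HORVU5Hr1G064230) had 1.15, 2.01, 2.72 and 1.64 CPM at W5.0, against 17.1, 12.7 and 18.3 CPM at W2.0, and fell by 3.08 ± 0.53 (adjusted p = 0.0014). Neither gene overlapped between stages, a condition of naming. Of 156 cuticle, wax and lipid transfer genes, 43 fell (27.6%) and 9 rose (5.77%), with a median of -0.68. With single libraries left out, 31 to 39 fell. Without W2.0 replicate 1, 4 rose, and 5 rose without W2.0 replicate 2 or 3 or W5.0 replicate 2 or 4, against 6 to 7 without the others. The lipid transfer protein gene HORVU2Hr1G099470 had 0.165, 0.463, 0.303 and 0.411 CPM at W5.0, against 27.7, 20.1 and 15.1 CPM at W2.0, and fell by 5.92 ± 1.13 (adjusted p = 0.0028). Within the same list, protodermal factor 1 (HORVU2Hr1G045560), a marker of the outermost cell layer of young organs, rose by 2.67 ± 0.53 (adjusted p = 0.0032), with 24.9, 29.95, 28.5 and 43.5 CPM at W5.0, against 3.31, 4.06 and 7.298 CPM at W2.0. A GDSL esterase/lipase (HORVU7Hr1G076290) also rose, by 2.47 ± 0.49 (adjusted p = 0.003). Of the 7 stomatal and epidermal patterning genes, 1 rose (14.3%), with a median of -0.04 (0.08 with the word pattern as first written).

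**Figure D3:**
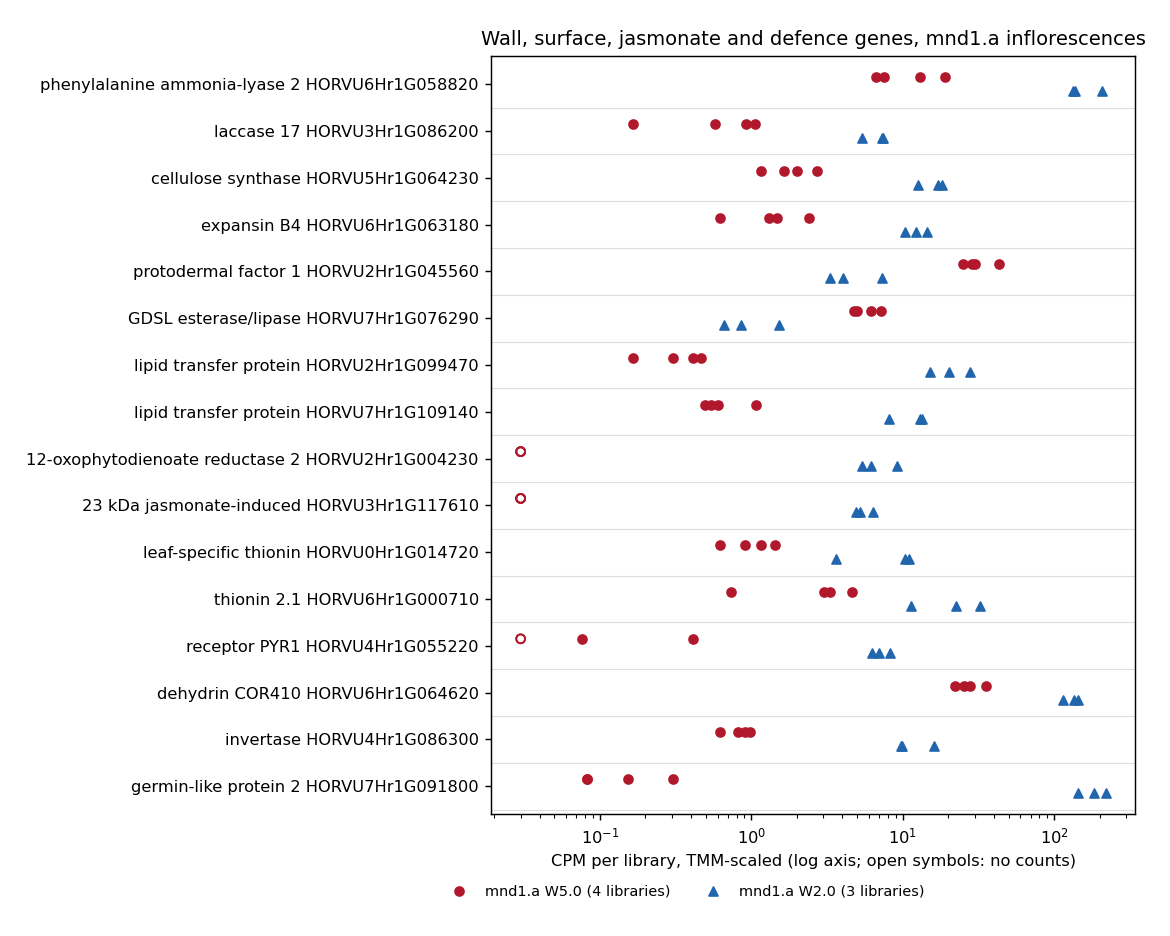
Each row is a gene of the wall, surface, jasmonate, defence, abscisic acid or sugar lists or a gene with one of the largest falls, and each symbol is 1 library on a log axis of CPM, with W5.0 as circles, W2.0 as triangles and open symbols for libraries with no counts. All rows have the stages apart, which the naming rule required, with W5.0 on the left except for protodermal factor 1 and the GDSL esterase/lipase.

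Sugar transport and cleavage genes fell in 20 (27.8%, against 10.4% of all tested genes) and rose in 7 (9.72%, against 8.66%) of 72 cases (median -0.23), and 11 to 13 fell without W2.0 replicate 1 or 2 or W5.0 replicate 1 or 4, and 15 to 16 without any other library. A cell wall invertase annotated as an insoluble beta-fructofuranosidase (HORVU4Hr1G086300), which splits sucrose as it arrives in a growing tissue, had 0.907, 0.618, 0.984 and 0.821 CPM at W5.0, against 16.1, 9.75 and 9.91 CPM at W2.0. It fell by 3.82 ± 0.43 (adjusted p = 0.00011), with the stages apart by more than a factor of 5. A trehalose-6-phosphate phosphatase (HORVU1Hr1G053770), of the family that in maize includes the branching gene RAMOSA3, had 4.29, 6.41, 4.24 and 7.31 CPM at W5.0, against 2.49, 1.87 and 2.55 CPM at W2.0, and rose by 1.26 ± 0.30 (adjusted p = 0.0071).

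Cell division and chromatin genes rose more often than they fell, by small amounts. Cyclin and mitosis genes rose in 22 (14.5%) and fell in 3 (1.97%) of 152 cases (median 0.20). Chromatin regulators rose in 33 (24.1%) and fell in 1 (0.73%) of 137 (median 0.21). The shares over all tested genes were 8.66% rising and 10.4% falling. Cyclin-D6-1 (HORVU0Hr1G003280) had 8.904, 10.1, 10.7 and 10.6 CPM at W5.0, against 2.49, 3.9000 and 5.35 CPM at W2.0, and rose by 1.35 ± 0.28 (adjusted p = 0.0035). Histone-lysine N-methyltransferase 2A (HORVU3Hr1G059080) rose by 0.53 ± 0.11 (adjusted p = 0.0027) and lysine-specific demethylase 5B (HORVU1Hr1G093770) by 0.52 ± 0.10 (adjusted p = 0.0016), enzymes that write and erase histone methylation. Both demethylase and methyltransferase had all W5.0 libraries above all W2.0 libraries, a condition of naming. Without W2.0 replicate 1 or 2, 7 to 8 cyclin and mitosis genes and 14 to 15 chromatin genes rose. Without W2.0 replicate 3 or W5.0 replicate 1 or 4, 12 to 14 cyclin and mitosis genes rose, and without W5.0 replicate 4, 20 chromatin genes.

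For histones, DNA replication genes and ribosomal proteins the number of calls depended on which libraries shared the spread estimate. Over all genes, the fit on the 7 libraries alone called 3664 higher and 4083 lower. Histone genes, transcribed for DNA synthesis, had a median log2 fold change of 0.34, with 165 of 178 members above 0. In the main fit 7 histone genes rose (3.93%, below the 8.66% of all tested genes) and 1 fell. In the fit on the 7 libraries 134 rose, and 2 to 5 rose with single libraries left out. DNA replication genes had a median of 0.21, with 4 of 68 rising in the main fit (5.88%) and 33 in the fit on the 7 libraries. Histone H2A 2 (HORVU2Hr1G043840), which met the naming rule, had 47.3, 48.9, 52.4 and 50.8 CPM at W5.0, against 34.2, 32.5 and 36.98 CPM at W2.0, and rose by 0.53 ± 0.12 (adjusted p = 0.0076). For cytosolic ribosomal proteins the median was -0.25 and 158 of 177 genes lay below 0. In the main fit 33 of them fell (18.6%, against 10.4% of all tested genes) and 4 rose (2.26%). In the fit on the 7 libraries 123 fell. With any 1 of the 7 libraries left out, 3 (without W2.0 replicate 1) to 21 (without W2.0 replicate 3) of them fell. The 60S ribosomal protein gene L1-B (HORVU7Hr1G059090) had 476, 497, 495 and 420.0 CPM at W5.0, against 759, 759 and 683 CPM at W2.0, and fell by 0.64 ± 0.14 (adjusted p = 0.005). For ribosomal proteins of plastids and mitochondria the median was -0.21, with 9 of 117 falling in the main fit (7.69%, below the 10.4% of all tested genes). In the fit on the 7 libraries 57 fell, and 0 to 5 fell with single libraries left out. Summed histone levels were 30398 to 34013 CPM at W5.0, against 23868 to 26725 CPM at W2.0, and summed cytosolic ribosomal protein levels 62342 to 65381 CPM at W5.0, against 74582 to 82141 CPM at W2.0, without overlap in either list.

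Photosynthesis genes, the markers of leaf tissue in the samples, rose in a share close to that of all tested genes. Of 78, 6 rose (7.69%, against 8.66% of all tested genes) and 1 fell (1.28%, against 10.4%), with a median of 0.31. This median was 0.10 without W5.0 replicate 2, 0.12 without W2.0 replicate 2 and 0.50 without W2.0 replicate 3, with 13 genes rising without W2.0 replicate 3, 2 without W2.0 replicate 1 or 2 or W5.0 replicate 2, and 3 to 5 without any other library. Their summed level was 1554 to 2317 CPM at W5.0, against 1116 to 1912 CPM at W2.0, so the stages overlapped. A chlorophyll a-b binding protein gene (HORVU7Hr1G040380) had 3.96, 8.96, 6.28 and 4.5997 CPM at W5.0, against 0.0828, 0.390 and 0.730 CPM at W2.0, and rose by 3.79 ± 0.63 (adjusted p = 0.00099). Clock, CONSTANS-like and B-box genes, which time flowering by day length, rose in 2 (6.45%) and fell in 6 (19.4%) of 31 cases (median 0.04), or 6 and 12 with the word pattern as first written, and 0 to 2 rose and 5 to 6 fell with single libraries left out. PRR95 (HORVU5Hr1G081620), a pseudo-response regulator of the circadian clock, had 46.5, 49.4, 53.3 and 39.1 CPM at W5.0, against 90.3, 98.1 and 88.9 CPM at W2.0, and fell by 0.97 ± 0.21 (adjusted p = 0.005). Of the 13 anther, meiosis and pollen genes, 1 rose (7.69%, near the 8.66% of all tested genes) and 2 fell (15.4%), with a median of 0.05.

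The largest rises over all genes that met the naming rule were in enzymes and protein turnover factors. A polyamine oxidase (HORVU4Hr1G071450, chromosome 4H, 580594826 to 580597776), which breaks down polyamines, had 17.6, 19.3, 15.6 and 31.6 CPM at W5.0, against 0, 0.0780 and 0.669 CPM at W2.0, and rose by 6.18 ± 1.01 (adjusted p = 0.0013). A second one, polyamine oxidase 1 (HORVU7Hr1G090410), had 16.5, 30.7, 23.2 and 22.8 CPM at W5.0, against 0.166, 1.33 and 0.851 CPM at W2.0, a rise of 4.86 ± 1.15 (adjusted p = 0.009). Both were near 0 at W2.0, and the stages did not overlap, a condition of naming. An rRNA N-glycosidase (HORVU4Hr1G089850), a ribosome-inactivating type of protein, had 23.4, 34.97, 21.3 and 47.1 CPM at W5.0, against 0.497, 0.0780 and 0.851 CPM at W2.0, and rose by 5.96 ± 0.69 (adjusted p = 0.00013). SKP1-like 4 (HORVU5Hr1G084140) and the E3 ubiquitin ligase SINA-like 11 (HORVU3Hr1G005430), parts of the protein degradation machinery, rose by 4.98 ± 0.83 (adjusted p = 0.001) and 4.84 ± 0.90 (adjusted p = 0.002) on the log2 scale. W5.0 replicate 4 was the highest library for the first polyamine oxidase, the N-glycosidase, SKP1-like 4 and SINA-like 11, as it was in 51.03% of all genes that rose at least 2-fold, against 27.0% of all tested genes.

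Some of the largest falls ended in libraries without counts. In 61 genes that fell, no W5.0 library had a count, and in 15 genes that rose, no W2.0 library had one. Germin-like protein 2 (HORVU7Hr1G091800, chromosome 7H, 561277481 to 561278820), an extracellular protein of the germin family, had 0.0824, 0.154, 0.303 and 0.0821 CPM at W5.0, against 219, 143 and 183 CPM at W2.0, and fell by 10.09 ± 1.63 (adjusted p = 0.0011; 0.069 in limma-voom), the largest fitted fall among the named genes with counts at W5.0. A gene annotated as Meiosis 5 (HORVU7Hr1G088880) had no counts at W5.0, against 18.2, 3.74 and 17.6 CPM at W2.0, and was at least 222-fold lower (adjusted p = 0.00021, and 0.072 in the fit on the 7 libraries). Serine decarboxylase 1 (HORVU3Hr1G112520) had none at W5.0, against 17.5, 11.4 and 5.23 CPM at W2.0, and was at least 191-fold lower (adjusted p = 0.0082; 0.063 in limma-voom). The W2.0 libraries of both genes differed more than 3-fold among themselves. They differed further in purple acid phosphatase 27 (HORVU1Hr1G087010), a phosphate-releasing enzyme, with no counts at W5.0, against 29.1, 1.09 and 0.487 CPM at W2.0 (at least 172-fold lower, adjusted p = 0.015; 0.20 in limma-voom). Its value rests on W2.0 replicate 1, without which the fitted log2 fold change was -6.55 in place of -10.24, both dependent on the prior count.

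At W3.5, between the stages compared, falling genes stood closer to their W5.0 level than rising genes did. There 694 of the 1120 genes that fell at least 2-fold (62.0%) had a mean log2(CPM + 1) nearer to their W5.0 than to their W2.0 mean, and 110 of the 486 genes that rose at least 2-fold (22.6%) did. The median gene had made 62.4% of its fall and 16.6% of its rise. Of 43 lignin and secondary wall genes with such a fall, 33 were nearer to W5.0, and of 29 pathogenesis-related genes 24 were. Of 37 cuticle, wax and lipid transfer genes 25 were. Lower shares were found for jasmonate (10 of 18), primary wall growth (11 of 21) and ALOG genes (2 of 6). Of the 15 MADS-box genes with such a rise, 1 was. The median one of these 15 had made -18.9% of its rise, so at W3.5 it stood below its W2.0 mean. That mean leans on W2.0 replicate 3, the highest W2.0 library in 15 of the 16 MADS-box genes that rose. A drop from W2.0 to W3.5 is therefore not shown. MADS-box transcription factor 1 had 0.942 CPM on average at W3.5, above W2.0 replicates 1 and 2 and below W2.0 replicate 3. Phenylalanine ammonia-lyase 2 stood at 10.7, 21.6 and 39.4 CPM in the 3 W3.5 libraries. W3.5 carries the other library code prefix, so this stage and the prefix cannot be told apart, and these values are a description.

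Bowman went through the same span with more calls. There 10978 of 21132 genes (51.9%) were called, 5261 higher (24.9%) and 5717 lower (27.1%) at W5.0 than at W2.0. The steps of the 2 lines share no library, and their log2 fold changes correlated across genes at r = 0.689, with genes not being independent replicates. Called in both lines were 3128 genes, which are 77.5% of the mnd1.a calls and 28.5% of the Bowman calls, and 2988 of them had the same sign. Bowman W5.0 and W2.0 differ in library code prefix, so stage and prefix cannot be told apart in Bowman, nor in any difference between the steps. Among the groups given here, the summed level of ribosomal-RNA-like transcripts was lower in those with prefix 1327 than in those with 1328. With prefix 1328 it was 23604 to 27159 CPM at mnd1.a W5.0, 12747 to 15884 at mnd1.a W2.0 and 19177 to 28657 at Bowman W2.0. With prefix 1327 it was 2121 to 3546 CPM at Bowman W5.0 and 2207 to 3257 at mnd1.a W3.5. Within mnd1.a, 54 of 83 ribosomal-RNA-like transcripts rose (65.1%, against 8.66% of all tested genes in mnd1.a, median 0.83), without a change of prefix. Leaving these and organelle-encoded transcripts out of the library sizes gave 4031 calls in mnd1.a.

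**Figure D4:**
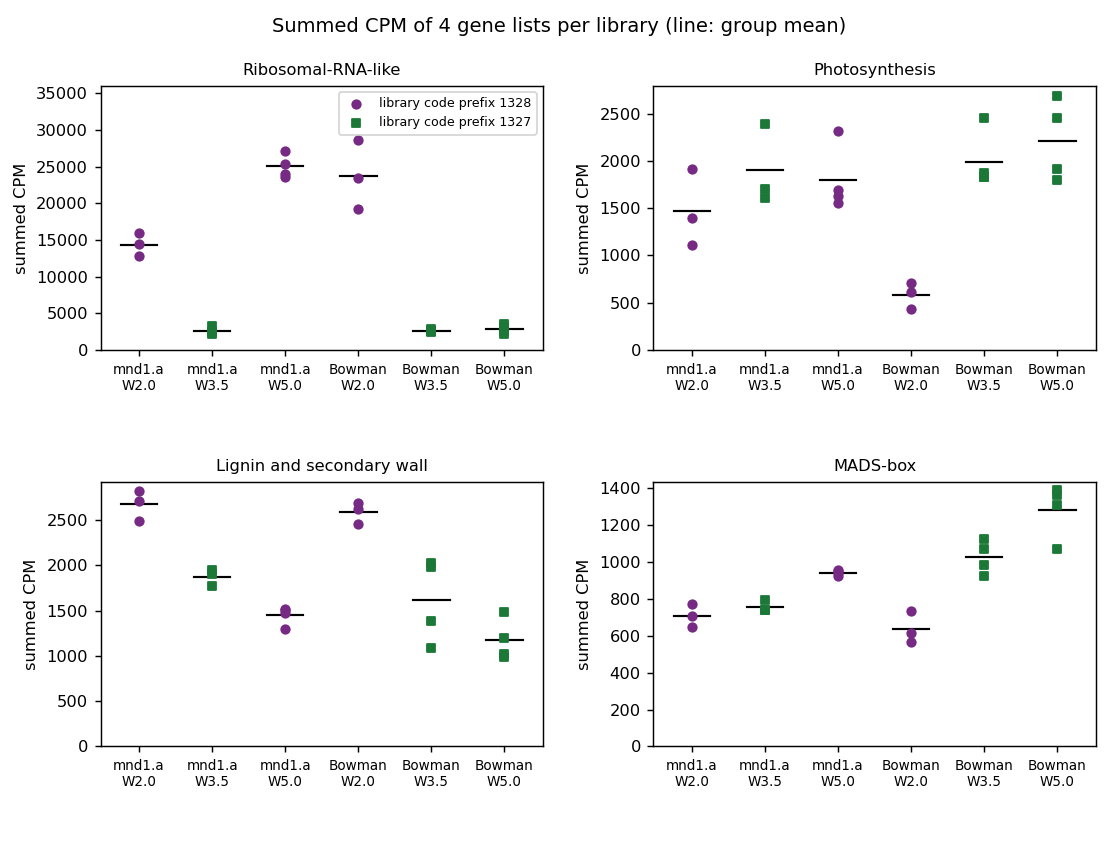
Points give the summed CPM of 4 gene lists in each library, by line and stage, with circles for library code prefix 1328, squares for prefix 1327 and a line at the group mean. Ribosomal-RNA-like transcripts are at most 3546 CPM in mnd1.a W3.5 and Bowman W5.0 and at least 12747 CPM in the 3 groups with prefix 1328, whereas in both lines the lignin sum is lower and the MADS-box sum higher at W5.0 than at W2.0.

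The test of the difference between the steps (mnd1.a minus Bowman) called 2172 genes (10.3%), 1075 with a higher step in mnd1.a (5.09%) and 1097 with a lower one (5.19%). This count was 951 without Bowman W2.0 replicate 2, 1230 without Bowman W2.0 replicate 1, 966 without mnd1.a W2.0 replicate 3, 1225 without mnd1.a W2.0 replicate 2 and 1359 without mnd1.a W5.0 replicate 4. Both TFL1 genes differed, and these calls held with each of the 14 libraries left out in turn. In Bowman the 4H gene fell to 0.222, 0.128, 0.225 and 0.317 CPM at W5.0, against 2.86, 1.36 and 5.73 CPM at W2.0, so its step was 1.53 in mnd1.a and -3.85 in Bowman, a difference of 5.38 ± 0.77 (adjusted p = 0.00029, up to 0.0017 with 1 library left out). In Bowman the 2H gene fell to 11.04, 2.51, 4.62 and 1.97 CPM at W5.0, against 41.3, 41.7 and 65.2 CPM at W2.0, a difference between steps of 3.23 ± 0.73 (adjusted p = 0.012, up to 0.040). At W5.0 no mnd1.a library of either gene lay as low as any Bowman library.

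MADS-box genes rose in both lines. The median step of the list was 0.83 in mnd1.a and 2.18 in Bowman, where 21 rose and 7 fell (24.9% and 27.1% of all tested genes). The difference was called for 3 of 36 members, all lower in mnd1.a (5.19% of all tested genes). VRN-H1 rose by 0.63 in mnd1.a and 1.53 in Bowman, a difference of -0.90 ± 0.25 (adjusted p = 0.027, a call lost with any 1 of 6 of the 14 libraries left out, up to 0.088). MADS-box transcription factor 5, with 37.8, 69.8, 40.9 and 63.8 CPM at Bowman W5.0 and 0, 0 and 0.266 CPM at Bowman W2.0, had a fitted difference of -6.02 ± 1.73 that depends on the prior count (adjusted p = 0.037, a call lost with any 1 of 9 of the 14 libraries left out, up to 0.25). PPD-H1 differed by -0.55 ± 0.16 (adjusted p = 0.034, a call lost with any 1 of 10 of the 14 libraries left out, up to 0.094). MADS-box transcription factor 7 had 21.6, 23.4, 20.8 and 47.3 CPM at Bowman W5.0 and no counts at Bowman W2.0, and its difference between the steps was not called (adjusted p = 0.16). MADS-box transcription factor 1 had 27.2, 45.5, 26.3 and 64.1 CPM at Bowman W5.0, against 0.147, 0.0681 and 0.266 CPM at Bowman W2.0, a range below that of 2 of the 3 mnd1.a W2.0 libraries, and its difference of -3.66 ± 1.87 was not called (adjusted p = 0.22).

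Some lists had different medians and calls in the lines. Over all tested genes, 24.9% rose and 27.1% fell in Bowman. The step was called higher in mnd1.a for 5.09% of all tested genes and lower for 5.19%. Photosynthesis genes had a median step of 0.31 in mnd1.a (0.10 to 0.50 with single mnd1.a libraries left out) and 1.82 in Bowman, where 59 of 78 rose, and 44 had a lower step in mnd1.a. Their summed level was 1554 to 2317 CPM at mnd1.a W5.0 and 1116 to 1912 at mnd1.a W2.0, 1795 to 2682 at Bowman W5.0 and 439 to 705 at Bowman W2.0, so the lines were apart at W2.0 and overlapped at W5.0. TCP genes had a median step of 0.01 in mnd1.a and -0.94 in Bowman, where 14 of 20 fell, and 8 had a higher step in mnd1.a. Histones had a median step of 0.34 in mnd1.a and -0.44 in Bowman, with 19 of 178 called higher in mnd1.a. Cytosolic ribosomal proteins had a median step of -0.25 in mnd1.a and -0.66 in Bowman, with 49 of 177 called higher and 2 lower in mnd1.a. Lignin and secondary wall genes fell in both lines, 51 of 99 in mnd1.a and 70 in Bowman, with medians of -1.10 in mnd1.a and -1.39 in Bowman, and 3 of 99 called higher and 1 lower in mnd1.a. Ribosomal-RNA-like transcripts had a median step of 0.83 in mnd1.a and -3.07 in Bowman, with 67 of 83 called higher in mnd1.a. Organelle-encoded transcripts had medians of 0.97 in mnd1.a and -1.69 in Bowman, with 18 of 30 called higher in mnd1.a. The part of the library code prefix in these differences was not tested, since the prefix changes with stage in Bowman only.

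**Figure D5:**
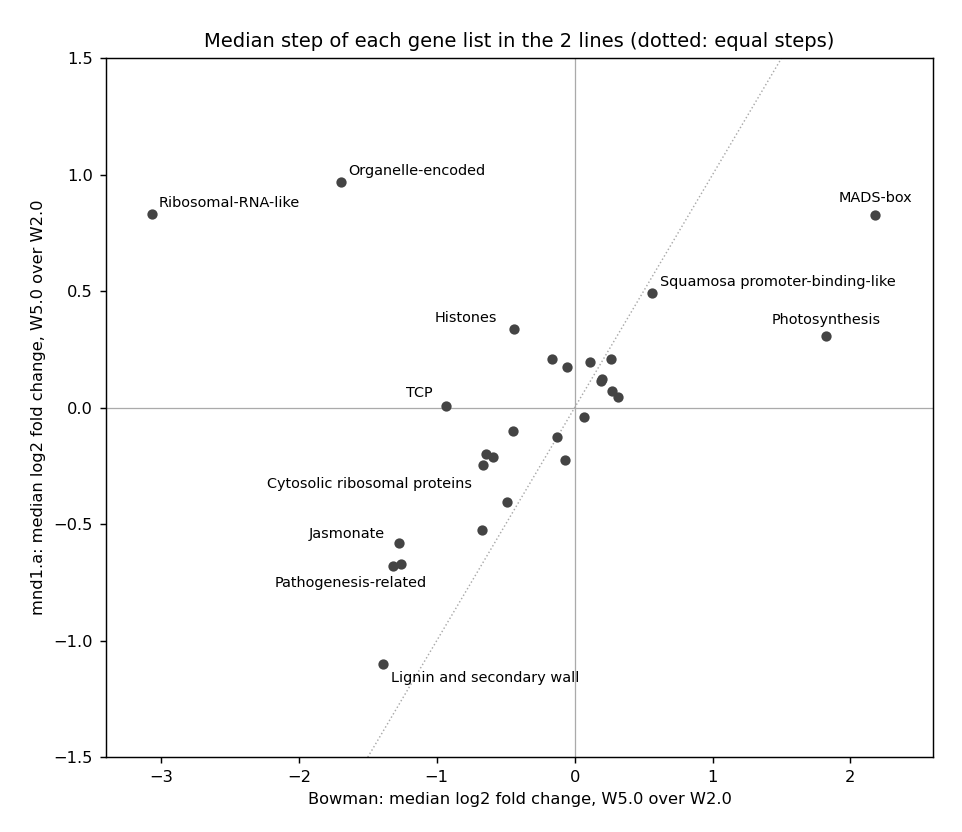
Each point is a gene list with at least 20 tested members, placed by its median log2 fold change from W2.0 to W5.0 in mnd1.a (vertical axis) and Bowman (horizontal axis), and the dotted line marks equal steps. Lignin and SPL genes lie near the line, whereas photosynthesis genes (0.31 against 1.82) lie below it and ribosomal-RNA-like transcripts (0.83 against -3.07) above it.

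The 5 genes named for a higher step in mnd1.a, not described singly here, differed by 4.26 to 5.15 (adjusted p up to 1.6e-09 in edgeR's test). Their calls held with each of the 14 libraries left out, which leaves the change of prefix in Bowman in place. Among the single genes named for a lower step in mnd1.a, with smaller differences, were enzymes and nodulin-like genes. A second insoluble beta-fructofuranosidase (HORVU2Hr1G109120) had 0.989, 0.849, 1.44 and 0.164 CPM at mnd1.a W5.0 and 4.23, 4.21 and 7.05 at mnd1.a W2.0, 27.9, 22.8, 18.2 and 9.64 at Bowman W5.0 and 11.3, 9.598 and 16.9 at Bowman W2.0. Its log2 fold change in mnd1.a was -2.57 ± 0.55 (adjusted p = 0.0049), and it was not called in Bowman. The difference of -3.22 ± 0.70 (adjusted p = 0.0093) held with each library left out. An early nodulin-related gene (HORVU7Hr1G020770) had 1.32, 0.926, 1.67 and 0.904 CPM at mnd1.a W5.0 and 6.46, 10.5 and 3.65 at mnd1.a W2.0, 4.26, 1.86, 1.63 and 2.92 at Bowman W5.0 and 1.47, 0.681 and 1.398 at Bowman W2.0. Its difference of -3.68 ± 0.81 (adjusted p = 0.0093) also held with each library left out. A second early nodulin-related gene next to it (HORVU7Hr1G020780) differed by -3.17 ± 0.91 (adjusted p = 0.037, a call lost with any 1 of 9 of the 14 libraries left out) and a purple acid phosphatase 27 gene on 4H (HORVU4Hr1G085050) by -2.81 ± 0.86 (adjusted p = 0.047, a call lost with any 1 of 12 of the 14 libraries left out). The phosphatase had 18.6, 22.9, 22.2 and 17.9 CPM at mnd1.a W5.0, against 286, 241 and 233 CPM at mnd1.a W2.0. A subtilisin-like protease (HORVU2Hr1G102920), a secreted peptidase, had 2.47, 2.47, 2.19 and 1.396 CPM at mnd1.a W5.0 and 12.3, 11.7 and 11.5 at mnd1.a W2.0, with a difference of -2.45 ± 0.62 (adjusted p = 0.021, not called without Bowman W2.0 replicate 1 or 2).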

How the data were processed

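Messenger RNA of barley inflorescences was sequenced, and the authors deposited, per the file headers, estimated counts per transcript from Salmon beside log2 values not used here (21 other columns). Further tools named in the submitters' processing notes, without a role, are limma, GATK and BWA 0.7.15, and the annotation is credited to Mascher et al. in the file header. Columns headed W3.0 were taken as W3.5. Estimated counts were rounded, since 94.9% were not whole, and 3186 genes failing edgeR's filterByExpr (minimum 10 per library, 15 in all) were removed, leaving 21132. edgeR 4.0.16 (R 4.3.3) fitted 6 groups of line and stage over 21 libraries with TMM factors (0.902 to 1.08) and quasi-likelihood tests, Benjamini-Hochberg adjusted. The script was tested on simulated data. Alternatives used DESeq2 1.42.0, limma 3.58.1, other scalings, fits on fewer groups, a replicate block and single libraries left out. Named genes were the MADS-box and TFL1 members called or above 5 CPM, MND1, VRN-H1, PPD-H1, VRS1, up to 2 genes per list and direction and the 8 largest changes per direction (5 for the difference), at 5 CPM or more, without overlap and called with each library left out. Lists are word patterns on the authors' annotation. Members and lists were chosen with earlier results of these data known.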

Additional observations from a re-analysis of the deposited data

Results flagged for a closer look

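Within the 4 W5.0 libraries, 1 library stood apart from the other 3 for 4 of the genes described in the text, by Dixon's test at the 95% level. The test flags about 1 in 20 groups by chance and was run on all named genes with counts at W5.0. Any or all of these flags may therefore have arisen by chance. Flags of named genes not described are not listed. MND1 (HORVU7Hr1G113480) had 2.39 CPM in W5.0 replicate 2, against 5.90 to 6.02 CPM in the others. The MADS-box transcription factor 26 gene (HORVU7Hr1G076310) had 0.605 CPM in W5.0 replicate 3 and no counts in the others, the dehydration-responsive element-binding gene (HORVU5Hr1G080300) 0.757 CPM in replicate 3, against 0.463 to 0.495 CPM, and bHLH128 (HORVU6Hr1G054910) 0.154 CPM in replicate 2, against 0.493 to 0.530 CPM. Any gene with counts in only 1 of these libraries is flagged, as MADS-box transcription factor 26 was.

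The step differed between mnd1.a and Bowman by edgeR's test of the difference, mnd1.a minus Bowman in log2, for 25 of the genes named by rule. The 12 of them that the text describes follow, and of the other 13, the difference was positive in 11. For the 12, the step was higher in mnd1.a for both TFL1 genes, by 5.38 for HORVU4Hr1G078770 (adjusted p = 0.00029) and 3.23 for HORVU2Hr1G072750 (adjusted p = 0.012), and for histone H2A 2 (HORVU2Hr1G043840), by 0.67 (adjusted p = 0.021, a call lost with any 1 of 3 of the 14 libraries left out, up to 0.072). It was lower for VRN-H1 (HORVU5Hr1G095630), at -0.90 (adjusted p = 0.027), PPD-H1 (HORVU2Hr1G013400), at -0.55 (adjusted p = 0.034), MADS-box transcription factor 5 (HORVU7Hr1G025700), at -6.02 (adjusted p = 0.037), and PRR95 (HORVU5Hr1G081620), at -1.11 (adjusted p = 0.027, a call lost with any 1 of 6 of the 14 libraries left out, up to 0.082). It was also lower for the invertase HORVU2Hr1G109120, at -3.22 (adjusted p = 0.0093), the protease HORVU2Hr1G102920, at -2.45 (adjusted p = 0.021), the nodulin-related HORVU7Hr1G020770 and HORVU7Hr1G020780, at -3.68 and -3.17 (adjusted p = 0.0093 and 0.037), and the phosphatase HORVU4Hr1G085050, at -2.81 (adjusted p = 0.047). The calls of VRN-H1, PPD-H1, MADS-box transcription factor 5, the protease, HORVU7Hr1G020780 and the phosphatase were also lost with some single libraries left out, as given with their values above. In Bowman the stages differ in library code prefix, which cannot be told apart from the difference.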

How the results depend on the processing

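All 132 named genes kept their side of the threshold, and the called ones their direction, with DESeq2, RLE or upper-quartile factors or no filter on low counts. The same held for library sizes without ribosomal-RNA-like and organelle-encoded transcripts. Apart from MND1, VRN-H1, PPD-H1, VRS1 and the MADS-box and TFL1 members, these genes were selected as called with each of the 7 libraries left out. Their stability is therefore in part a condition of naming. Of the 4034 called genes, 1611 kept their call in this way. Limma-voom lost 7 calls, and no named gene called in the main fit changed sign in any setting. Named genes that were not called could change sign. MND1, at -0.13 in the main fit, was 0.019 without W2.0 replicate 2 and 0.10 without W5.0 replicate 2. The 4034 calls (1829 higher, 2205 lower) were 6500 (3123 and 3377) in a fit on mnd1.a libraries, 7747 (3664 and 4083) in a fit on the groups compared, and 828 (288 and 540) at an adjusted p under 0.01 with a 2-fold change. At that threshold Bowman had 3029 calls (1130 and 1899) and the difference between the steps 325 (185 and 140), and a fit on the 4 groups gave that difference 3439 calls, 1868 of them higher. Leaving out single libraries gave 2012 to 3220 calls (829 to 1466 higher, 1183 to 1754 lower), and for the difference 951 to 2930 (484 to 1436 higher, 458 to 1494 lower). It moved 12 list medians past the spread between libraries: AP2 and ethylene-responsive factors -0.24 to -0.10, abscisic acid -0.61 to -0.41, auxin -0.18 to -0.049, cyclins 0.17 to 0.21, cytosolic ribosomal proteins -0.28 to -0.19, jasmonate -0.74 to -0.54, KNOX, BELL and WOX -0.094 to 0.044, NAC -0.15 to -0.019, pathogenesis-related -0.68 to -0.56, phloem and xylem 0.11 to 0.18, SPL 0.34 to 0.69, and stomata -0.12 to 0.048. The cytokinin median was 0.026 in limma-voom. Under the word patterns as first written, which were narrowed after seeing the data, medians were -0.26 for ALOG, 0.12 for cytokinin, -0.35 for abscisic acid, -0.15 for pathogenesis-related, -0.47 for primary wall and 0.080 for stomata genes. Apart from fewer samples or groups in a fit, the cause was not tested. The column headers number the libraries, but same-numbered mnd1.a W5.0 and W2.0 libraries did not deviate together (r = -0.0096, 0.018 and -0.024), so the numbers were not taken as pairs. With them as a replicate block, 3485 genes were called (1624 higher, 1861 lower) and all 132 named genes kept their side of the threshold. Under this block, medians were 0.42 for SPL, -0.13 for AP2 and ethylene-responsive factors, -1.36 for ALOG, 0.019 for KNOX, BELL and WOX, -0.031 for NAC, 0.18 for chromatin, -0.43 for jasmonate, -0.53 for pathogenesis-related, 0.15 for cyclin, 0.16 for DNA replication, 0.25 for histone, -0.34 for primary wall and -0.97 for lignin genes. With 3 and 4 libraries, small changes of genes of low count were not detectable.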
